A study of Mus musculus with 16 samples.

Results

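The tetraspanins are small membrane proteins with 4 membrane-spanning segments that gather integrins, receptors and proteases into patches of the cell surface and of endosomes. Here the family was taken as every gene of the deposited count table whose symbol is Tspan followed by a number, or Cd9, Cd37, Cd53, Cd63, Cd81, Cd82 or Cd151, which gave 27 of 54347 genes. They were followed in mice that lack the upstream regulatory element (URE) of Spi1, the gene of the myeloid transcription factor PU.1 (UREΔ mice), and in wild-type (WT) littermates on a C57BL/6 background aged 8 to 12 weeks. Bone marrow was sorted into LSKs (Lin-Sca-1+c-Kit+ cells, which hold the stem cells and earliest progenitors) and GMPs (Lin-Sca-1-c-Kit+Cd16/32+ granulocyte-monocyte progenitors), and bulk RNA was sequenced from 4 libraries per genotype and cell type, 16 in all. The deletion is carried in the germ line, so every cell of a UREΔ mouse has it, and the sorted cells of both genotypes are mixtures of progenitor stages.

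In blood cells the family has members of distinct roles. Cd53, Cd37 and Tspan32 are largely restricted to leukocytes and their progenitors, and Cd82 and Cd81 are broader members that leukocytes use to organise integrins and co-receptors. Cd63 sits in late endosomes, lysosomes and secretory granules and reaches the surface when granules are released. Cd9, Cd151 and Tspan9 associate with adhesion receptors and are known from platelets, and the TspanC8 members (Tspan5, Tspan10, Tspan14, Tspan15, Tspan17 and Tspan33) escort the sheddase ADAM10 to the cell surface.

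The libraries held 20028302 to 29128858 counts each. Spi1, the gene whose enhancer was deleted, averaged 124 ± 40.0 CPM (counts scaled to a common library size; SD, n = 4) in WT LSKs and 3.02 ± 1.42 in UREΔ LSKs, and 140 ± 40.6 in WT GMPs and 21.3 ± 5.97 in UREΔ GMPs, with no overlap between genotypes. The summed level of 6 GMP markers (Mpo, Elane, Prtn3, Ctsg, Fcgr3 and Fcgr2b) was 693 to 1614 CPM in LSK libraries and 55046 to 160260 CPM in GMP libraries. The RNA also showed the sex of the mice. Replicate 1 of both genotypes had Y-linked transcripts and replicate 4 had Xist, whereas replicates 2 and 3 were female in UREΔ and male in WT, in LSKs and GMPs alike. Genotype and sex therefore overlapped in part, and each genotype result below was also fitted within replicates 1 and 4, where sex was matched, within replicates 2 and 3, and with a covariate for the Y-linked level. Every tetraspanin that edgeR called without a block in the comparisons below kept its direction within both pairs of replicates.

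Between genotypes 4 members were called in GMPs, namely Cd53, Cd63, Cd9 and Tspan32. Of these, Cd53, Cd63 and Tspan32 hold upstream the short letters that PU.1 is known to read. Cd53 and Tspan32 also hold those of RUNX factors, and Cd9 holds neither. The sequences directly upstream of the 3 members with a match are shown, so they were chosen for these letters. They are the 250 bases before a RefSeq transcript start (GRCm38.p6), written 5′ to 3′ on the strand of the gene, with GAGGAA (the PU.1 core) and TGTGGT (the RUNX core), or their reverse complements TTCCTC and ACCACA, in capitals.
Cd53, chr3:106790150-106790399, minus strand: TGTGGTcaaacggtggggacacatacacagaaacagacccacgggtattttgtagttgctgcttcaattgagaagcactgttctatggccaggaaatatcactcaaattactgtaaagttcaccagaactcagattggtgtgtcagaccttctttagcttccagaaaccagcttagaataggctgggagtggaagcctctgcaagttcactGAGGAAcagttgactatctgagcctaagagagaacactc
Cd63, chr10:128909095-128909344, plus strand: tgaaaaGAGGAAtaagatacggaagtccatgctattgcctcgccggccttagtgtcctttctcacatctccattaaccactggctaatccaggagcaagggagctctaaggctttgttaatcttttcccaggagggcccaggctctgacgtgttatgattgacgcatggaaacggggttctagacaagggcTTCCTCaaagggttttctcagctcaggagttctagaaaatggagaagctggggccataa
Tspan32, chr7:143004796-143005045, plus strand: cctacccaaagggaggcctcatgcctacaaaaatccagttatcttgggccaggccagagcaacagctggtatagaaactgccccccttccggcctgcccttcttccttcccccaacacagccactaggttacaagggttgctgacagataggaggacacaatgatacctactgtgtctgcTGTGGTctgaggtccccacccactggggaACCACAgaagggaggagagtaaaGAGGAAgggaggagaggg
The windows of Cd53 and Tspan32 end at the base before the annotated gene, and that of Cd63 lies in an intron of its longer transcripts. RefSeq windows were matched for 26 of the 27 members, 36 windows in all, and Tspan18 had none. GAGGAA stood in 10 of these 36 windows, from 9 genes, against 23.3% of all 32851 windows, and TGTGGT in 6 windows, from 5 genes, against 14.0%. The longer GAGGAAGT, which contains GAGGAA, stood in 2 windows, those of Cd37 and Cd82, against 2.44% of all windows. Among the 8 members called between genotypes below, GAGGAA stood in the windows of Cd53, Cd63 and Tspan32, TGTGGT in those of Cd53, Tspan2 and Tspan32, and GAGGAAGT in none. A match is only a run of letters in this window and was not tied to binding.

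Different genes were set side by side per kilobase of exon, with all annotated exons of a gene merged. On this scale a few members made up most of the family's summed level, and which of them came first differed between groups. The merged length can exceed that of the transcripts expressed, which was not known, so the order depends on this choice. Cd63 has 3682 such bases and Cd53 1742, while their means in WT GMPs were 432 and 440 CPM. In WT LSKs the order was Tspan13 (259 CPM per kb), Cd81 (225), Cd53 (187), Tspan4 (112) and Tspan32 (56.2). In UREΔ LSKs Tspan13 (488) again came first, followed by Cd81 (219), Tspan4 (159), Cd63 (106) and Tspan32 (89.0), and Cd53 stood at 33.5 CPM per kb. In WT GMPs Cd53 came first (253), before Cd81 (156), Cd63 (117), Tspan13 (91.6) and Tspan4 (70.2). In UREΔ GMPs Cd63 came first (316), before Cd81 (134), Cd53 (128), Tspan13 (107) and Cd9 (102). The first 5 members held 71.2% of the family's summed CPM per kb in WT LSKs, 74.0% in UREΔ LSKs, 72.5% in WT GMPs and 67.1% in UREΔ GMPs. The leading member stood clear of the next in all 4 libraries in UREΔ LSKs, WT GMPs and UREΔ GMPs, while in WT LSKs the ranges of Tspan13 and Cd81, and of Cd81 and Cd53, overlapped. Ranges also overlapped for each neighbouring pair from Cd81 down to Tspan32 in UREΔ GMPs and from Cd81 down to Tspan31 in WT GMPs, and for Cd81 and Tspan4, and Cd63 and Tspan32, in UREΔ LSKs, so the order among these was not resolved. In both LSK groups the range of Tspan32, the last member listed, also overlapped that of Tspan14, the next in order.

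**Figure D1:**
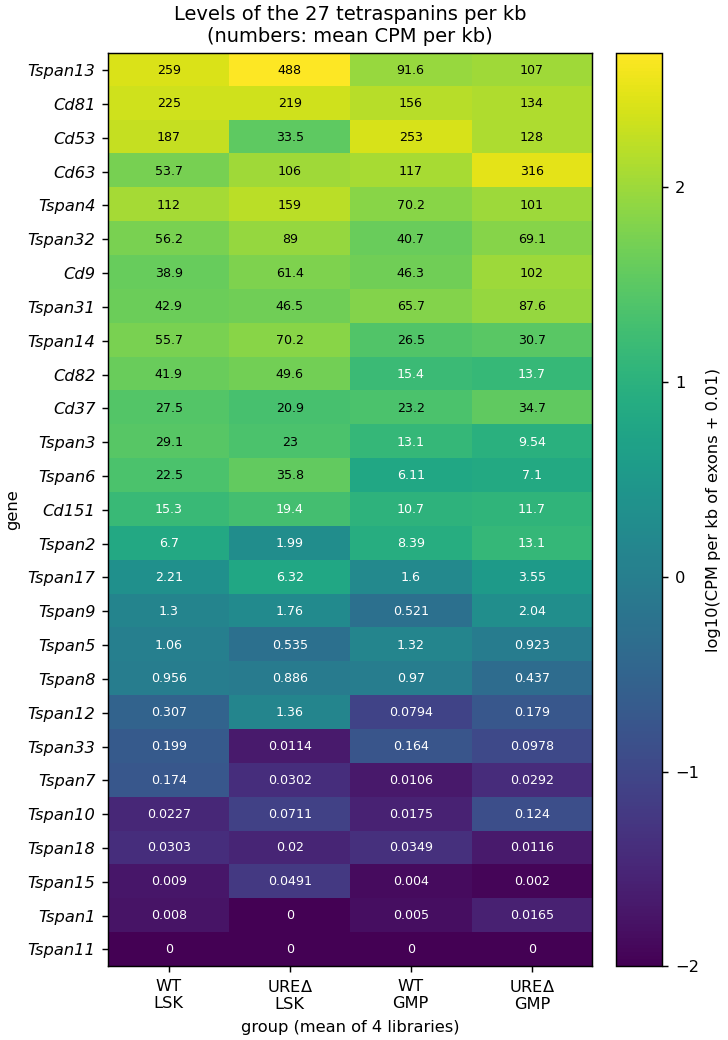
Mean level of each of the 27 tetraspanins (rows) in the 4 groups (columns, 4 libraries each), as CPM per kilobase of exon, with the mean printed in each cell and colour on a log10 scale after adding 0.01. Tspan13 has the highest mean in both LSK groups, Cd53 in WT GMPs at 253 and Cd63 in UREΔ GMPs at 316, and Tspan11 is at 0 throughout.

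At the other end of the range, Tspan11 had no count in any of the 16 libraries, and Tspan1, Tspan10 and Tspan15 had at most 3, 8 and 27 counts in a library. These 4 members passed the filter on low counts in none of the 5 comparisons, Tspan7, Tspan18 and Tspan33 in some of them, and 20 members in all 5. Of 4 tetraspanins with symbols outside the rule, the retinal Prph2 had no count, Rom1 had group means of 2.25 to 3.84 CPM, and the uroplakin Upk1a had at most 8 counts in a library. Upk1b had 7 to 66 counts in WT GMP libraries and 0 in all 4 UREΔ GMP libraries, where 3 counts per library is taken as the detection floor.

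Loss of the URE was first compared in LSKs. Of the 22 members tested, 3 were higher and 3 lower in UREΔ than in WT LSKs in edgeR's quasi-likelihood test, where a call needed a fold change over 1.5 and a Benjamini-Hochberg adjusted p under 0.05. Over all genes 6.14% were called in this comparison, 2.38% higher and 3.76% lower. Cd63, Tspan12 and Tspan13 rose, and Cd53, Tspan2 and Tspan33 fell. The members' median absolute log2 fold change was 0.63, against 0.27 over all 15154 genes tested. These are relative amounts in a sorted mixture, in which fewer cells of a type and less RNA per cell cannot be told apart.

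Cd53, the pan-leukocyte member, had 298, 377, 364 and 265 CPM in WT LSK replicates 1 to 4 and 78.7, 107, 14.0 and 33.7 CPM in UREΔ LSKs. The groups did not overlap, and replicates 3 and 4 of UREΔ were the lowest. The level was 5.72-fold lower in UREΔ LSKs (log2 fold change −2.52 ± 0.53 SE, edgeR with Benjamini-Hochberg adjusted p = 0.0225). The call was lost without UREΔ LSK replicate 4, WT LSK replicate 2 or WT LSK replicate 3 (edgeR adjusted p = 0.0668, 0.0605 and 0.0554) and with the Y-linked covariate (edgeR adjusted p = 0.0825), with log2 fold changes between −2.44 and −2.24.

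Cd63, the late endosome and granule member, moved the opposite way. It had 176, 189, 226 and 201 CPM in WT LSKs and 379, 440, 382 and 363 CPM in UREΔ LSKs. Every UREΔ library was above every WT library. The level was 1.93-fold higher in UREΔ LSKs (log2 fold change 0.95 ± 0.15 SE, edgeR adjusted p = 0.00539), and the call held without each library in turn and with the Y-linked covariate.

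Tspan2, best known from myelinating oligodendrocytes, had 43.8, 38.2, 19.8 and 25.6 CPM in WT LSKs and 9.55, 10.97, 9.02 and 8.24 CPM in UREΔ LSKs. The UREΔ values were tightly grouped below the WT range. The level was 3.44-fold lower (log2 fold change −1.78 ± 0.28 SE, edgeR adjusted p = 0.00521), again with each library left out and with the Y-linked covariate.

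Tspan13, the member with the highest mean per kb in both LSK groups, had 568, 638, 628 and 733 CPM in WT LSKs and 1035, 1552, 1054 and 1185 CPM in UREΔ LSKs. The groups were well apart, and the rise was 1.84-fold (log2 fold change 0.88 ± 0.18 SE, edgeR adjusted p = 0.0184). Tspan12, known as a co-receptor component in Norrin and Frizzled-4 signalling, had 1.63, 0.772, 1.05 and 0.604 CPM in WT LSKs and 3.16, 4.94, 4.47 and 5.44 CPM in UREΔ LSKs. It rose 4.29-fold from a low level (log2 fold change 2.10 ± 0.41 SE, edgeR adjusted p = 0.0154). Without WT LSK replicate 2 the edgeR adjusted p was 0.0671 for Tspan13 and 0.0573 for Tspan12, and without WT LSK replicate 1 it was 0.0649 for Tspan13. With the Y-linked covariate both calls were lost (edgeR adjusted p = 0.109 for Tspan13 and 0.0915 for Tspan12).

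Tspan33, a TspanC8 member known from erythroid progenitors and activated B cells, was near the detection limit. WT LSK replicates 1 to 4 held 51, 13, 26 and 26 counts and UREΔ LSK replicates 5, 0, 0 and 1. The groups did not overlap, and the fitted log2 fold change was −4.08 ± 0.95 SE (edgeR adjusted p = 0.0341). The call was lost in 7 of the 8 fits that left out a library, all but the one without UREΔ LSK replicate 1 (edgeR adjusted p up to 0.107), and with the Y-linked covariate (edgeR adjusted p = 0.0836). Over the 8 fits that left out a library the log2 fold change ranged from −5.91 to −3.63.

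**Figure D2:**
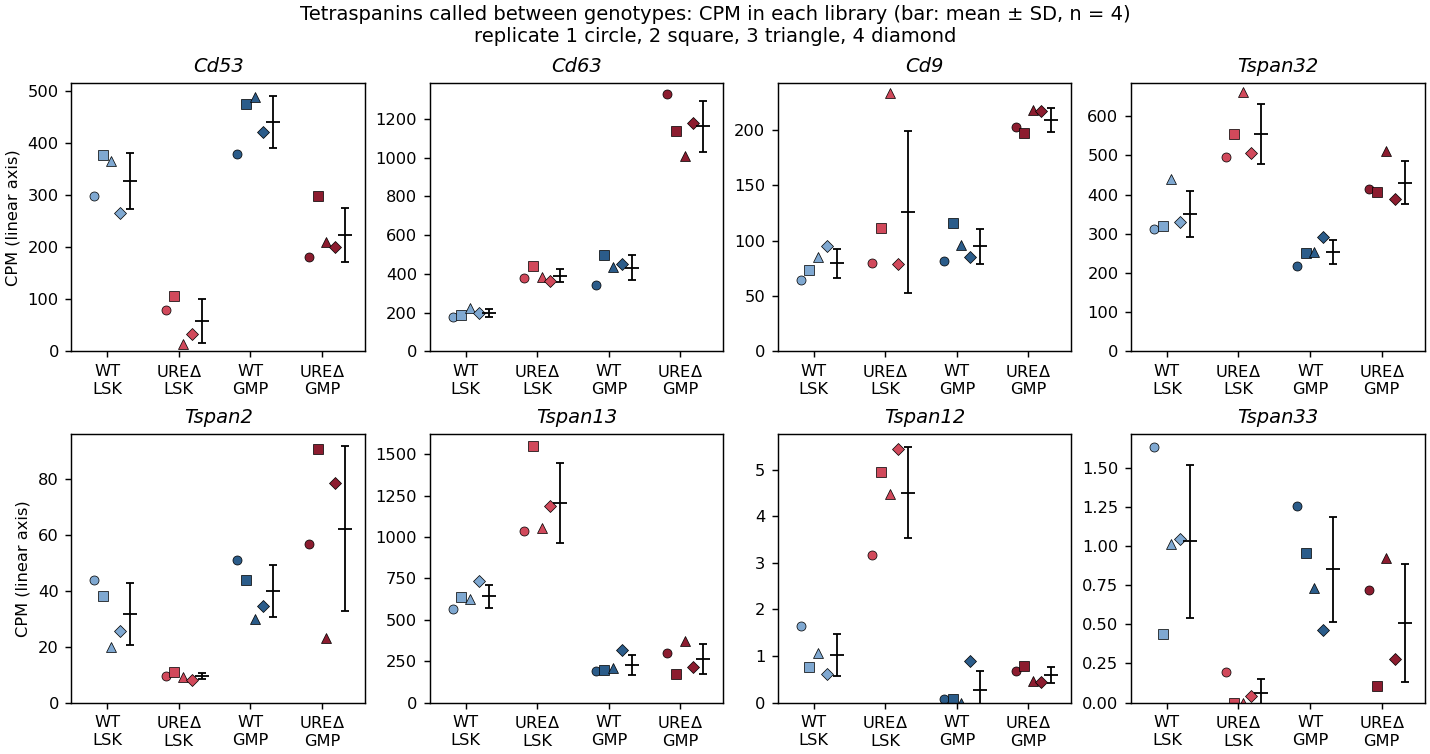
CPM in each library (linear axis from 0) of the 8 tetraspanins called between genotypes, by group, with symbols for replicates 1 to 4 and bars for the mean ± SD (n = 4), cut at 0 where they would pass below it. Cd53 is lower and Cd63 higher in UREΔ in both cell types without overlap, and the UREΔ LSK values of Tspan2 lie below the WT LSK range.

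With the replicate number as a block, 6 members were higher and 4 lower in UREΔ LSKs (3.83% and 5.62% of all genes, 9.46% in all), and DESeq2 without a block called 6 higher (2.35% of all genes). The 4 members added by the block were Tspan32, Tspan6, Tspan17 and Tspan5. Tspan32, a leukocyte member that restrains T cell activation, had 311, 320, 439 and 332 CPM in WT LSKs and 495, 554, 662 and 508 CPM in UREΔ LSKs, with no overlap (log2 fold change 0.63 ± 0.18 SE, edgeR adjusted p = 0.0838, and 0.0131 with the block). The X-linked Tspan6 had 43.8, 46.7, 49.9 and 44.7 CPM in WT LSKs and 69.8, 95.03, 65.6 and 64.9 CPM in UREΔ LSKs, also without overlap (log2 fold change 0.64 ± 0.18 SE, edgeR adjusted p = 0.0748, and 0.0384 with the block), and within the sex-matched replicates its log2 difference was 0.57. For the TspanC8 member Tspan17 the levels were 3.27, 1.48, 3.12 and 6.77 CPM in WT LSKs and 9.01, 8.88, 13.4 and 10.6 CPM in UREΔ LSKs (log2 fold change 1.49 ± 0.43 SE, edgeR adjusted p = 0.0839, and 0.0233 with the block). Its UREΔ libraries all lay above the WT range. Tspan5, another TspanC8 member, had 4.999, 11.4, 8.90 and 5.96 CPM in WT LSKs and 2.73, 4.01, 6.28 and 2.80 CPM in UREΔ LSKs, and the groups overlapped (log2 fold change −1.01 ± 0.39 SE, edgeR adjusted p = 0.226, and 0.0491 with the block).

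Across the family, 10 of the 22 members tested in LSKs had groups of 4 that did not overlap, against 12.5% of all genes. The members were also counted by role, with Cd37, Cd53, Cd81, Cd82, Tspan32 and Tspan33 as leukocyte members, Cd9, Cd81, Cd151, Tspan4, Tspan8 and Tspan9 as adhesion members, and Cd63, Tspan3, Tspan6 and Tspan31 as endosome and granule members, so that Cd81 and Tspan33 counted in more than 1 role. Against the 6.14% of all genes called, 2 of 6 leukocyte members fell (Cd53 and Tspan33) and none rose, though Tspan32 rose with the block. Of the 4 endosome and granule members 1 rose (Cd63), of the 6 adhesion members none was called, and of the 4 TspanC8 members tested 1 fell (Tspan33 again). Cd81, second by mean per kb in both LSK groups, had means of 648 ± 83.6 CPM in WT and 630 ± 147 CPM in UREΔ LSKs (log2 fold change −0.07 ± 0.20 SE). Cd37 had 97.0 ± 16.5 and 73.8 ± 17.2 CPM (−0.43 ± 0.22 SE). Cd82, which lies 2303355 bases from Spi1 on chromosome 2, had 126 ± 33.2 and 149 ± 40.3 CPM (log2 fold change 0.21 ± 0.25 SE). For none of these 3 did the difference exceed the test's threshold.

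Cd9, a platelet and stem cell surface member, had 64.8, 73.0, 85.2 and 94.8 CPM in WT LSKs and 79.6, 111, 233 and 78.7 CPM in UREΔ LSKs. The groups overlapped, and UREΔ LSK replicate 3 stood above the other 3 (log2 fold change 0.63 ± 0.35 SE, edgeR adjusted p = 0.479). Of the markers of megakaryocytes, Pf4 ranged from 8.68 to 16.1 CPM in WT LSKs and from 2.55 to 76.6 CPM in UREΔ LSKs, Ppbp from 1.53 to 3.71 and from 0.0780 to 355 CPM, and Vwf from 10.3 to 18.1 and from 4.18 to 63.3 CPM. Gp9 averaged 8.997 CPM in WT and 7.02 CPM in UREΔ LSKs, and Gp1bb had no count in WT LSKs and 14 counts over the 4 UREΔ LSK libraries. The part of such cells in the Cd9 level was not tested.

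The same comparison was made in GMPs, where 21 members were tested. Of these, 3 were higher and 1 lower in UREΔ than in WT GMPs, against 8.30% of all genes called (4.67% higher and 3.63% lower). Cd63, Cd9 and Tspan32 rose and Cd53 fell. Groups of 4 did not overlap for 6 of the 21 members, against 14.9% of all genes.

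Cd53 had 378, 473, 488 and 421 CPM in WT GMPs and 181, 298, 210 and 200 CPM in UREΔ GMPs. All UREΔ libraries were below the WT range, and the level was 1.998-fold lower (log2 fold change −0.999 ± 0.18 SE, edgeR adjusted p = 0.00934). Cd63 had 341, 497, 437 and 452 CPM in WT GMPs and 1327, 1137, 1007 and 1179 CPM in UREΔ GMPs. The 4 UREΔ libraries lay far above the 4 WT libraries, a 2.68-fold rise (log2 fold change 1.42 ± 0.16 SE, edgeR adjusted p = 0.00118). Both calls held without each library in turn and with the Y-linked covariate.

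Cd9 had 81.3, 116, 96.1 and 85.3 CPM in WT GMPs and 202, 197, 218 and 217 CPM in UREΔ GMPs. The 2 ranges were far apart and the UREΔ libraries lay within a narrow band, a 2.19-fold rise (log2 fold change 1.13 ± 0.16 SE, edgeR adjusted p = 0.00268) that also held in each of these alternative fits. Tspan32 had 217, 252, 253 and 292 CPM in WT GMPs and 414, 406, 513 and 390 CPM in UREΔ GMPs. The groups were separate, and the level was 1.69-fold higher (log2 fold change 0.76 ± 0.16 SE, edgeR adjusted p = 0.0168). This call was lost without WT GMP replicate 2 (edgeR adjusted p = 0.0577) and with the Y-linked covariate (edgeR adjusted p = 0.0856).

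With the replicate block, which called 9.52% of all genes higher, Tspan17 and Tspan9 were called in addition. Both were higher in UREΔ under each of the 4 replicate numbers, but the labels do not pair mice between genotypes. Numbers 2 and 3 set female UREΔ against male WT mice. Tspan9, known from platelets, had 3.94, 1.62, 0.440 and 4.36 CPM in WT GMPs and 17.9, 4.91, 1.49 and 16.3 CPM in UREΔ GMPs. Within each genotype replicates 1 and 4 were high and replicates 2 and 3 low, so that the groups overlapped. Under each number UREΔ was higher (log2 fold change 1.97 ± 0.84 SE, edgeR adjusted p = 0.222, and 0.00182 with the block). For Tspan17 the GMP levels were 2.30, 1.12, 3.03 and 4.15 CPM in WT and 5.35, 2.51, 9.38 and 6.31 CPM in UREΔ, with overlap (log2 fold change 1.16 ± 0.50 SE, edgeR adjusted p = 0.229, and 0.0260 with the block).

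By role, against 8.30% of all genes called, 1 of 6 leukocyte members rose (Tspan32) and 1 fell (Cd53) in GMPs, 1 of 6 adhesion members rose (Cd9), 1 of 4 endosome and granule members rose (Cd63), and none of the 4 TspanC8 members tested was called. Cd81 had 449 ± 100 CPM in WT and 386 ± 74.3 CPM in UREΔ GMPs, and Cd82 46.2 ± 13.3 and 41.3 ± 7.58 CPM, and neither was called. Other markers moved in the same cells. The sum of the 6 GMP markers, most of them granule genes, was 55046 to 70519 CPM in WT and 73769 to 160260 CPM in UREΔ GMPs, without overlap. Mpo made up most of that sum (means of 50523 and 91802 CPM) and was called with the replicate block only, as was Fcgr2b, with means of 89.3 CPM in WT and 51.9 CPM in UREΔ GMPs. For 4 endothelial markers the sum was 132 to 178 CPM in WT and 231 to 404 CPM in UREΔ GMPs, but 164 to 203 CPM in WT and 91.5 to 141 CPM in UREΔ LSKs. Pecam1, which progenitors also express, made up most of it, while Cdh5 averaged at most 0.231 CPM in a group. The summed level of 5 late neutrophil markers (S100a8, S100a9, Ngp, Ltf and Camp), all above 1 CPM in each group, was 44.9 to 144 CPM in WT GMPs and 217 to 993 CPM in UREΔ GMPs, and 35.1 to 177 CPM in WT and 177 to 355 CPM in UREΔ LSKs. For 6 mast cell and basophil markers, cells rich in CD63-bearing granules, the sum was 713 to 1267 CPM in WT and 863 to 2378 CPM in UREΔ GMPs, with overlap, and its markers moved in opposite directions. Cpa3 averaged 576 CPM in WT and 1248 CPM in UREΔ GMPs and was not called, and Mcpt8 rose (91.9 to 257 CPM, edgeR adjusted p = 0.0354). Ms4a2 (74.2 to 9.77 CPM, edgeR adjusted p = 0.0206) and Prss34 (188 to 35.1 CPM, edgeR adjusted p = 0.0140) fell, while Fcer1a (4.76 and 1.92 CPM) and Gata2 (47.7 and 47.2 CPM) were not called. In LSKs the sum of these markers was 69.3 to 155 CPM in WT and 130 to 253 CPM in UREΔ, with overlap. There Cpa3 averaged 23.4 CPM in WT and 89.1 CPM in UREΔ, and Mcpt8 3.94 and 17.3 CPM, both without overlap. Ms4a2 went the other way (1.80 and 0.264 CPM), and Fcer1a had 0.311 and 1.32 CPM and Gata2 75.0 and 73.5 CPM. For 6 monocyte and dendritic cell markers the sum was 452 to 594 CPM in WT and 37.2 to 121 CPM in UREΔ GMPs, and 150 to 348 and 43.7 to 102 CPM in the LSKs, and Siglech was at 0 in UREΔ LSKs. The part of these cells in the levels of the called members was not tested. The summed level of 4 T cell markers stayed at or under 7.54 CPM in every library, and in LSKs it was 3.16 to 7.54 CPM in WT and 0.464 to 1.90 CPM in UREΔ. Cd3e had 1 count over all 16 libraries.

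**Figure D3:**
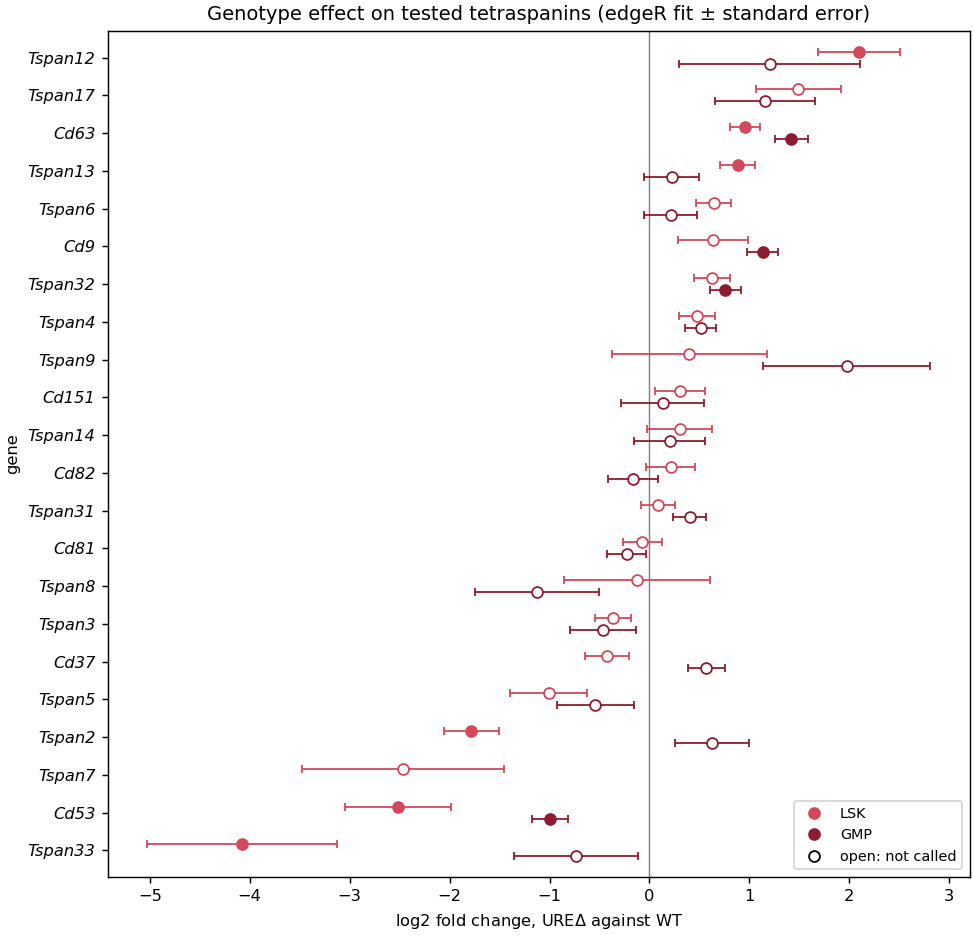
Log2 fold change (UREΔ against WT, ± standard error) of each tested tetraspanin in LSKs and GMPs, with filled points for called genes and open points for the rest. Cd53 is below 0 and Cd63 above 0 in both cell types, and Tspan2 is at −1.78 in LSKs and 0.62 in GMPs.

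The opposite changes of Cd53 and Cd63 can also be read inside a library, as the ratio of their counts, which needs no scaling between libraries. This ratio was chosen after the values of both genes had been seen and is given as a description. It was 1.32 to 1.999 in WT LSKs and 0.0367 to 0.243 in UREΔ LSKs, and 0.931 to 1.12 in WT GMPs and 0.136 to 0.262 in UREΔ GMPs. WT libraries of both cell types thus held counts of Cd53 and Cd63 in similar number or more of Cd53, and UREΔ libraries of both cell types held more of Cd63. The ranges of the UREΔ LSKs and UREΔ GMPs overlapped, and those of the WT LSKs and WT GMPs did not.

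**Figure D4:**
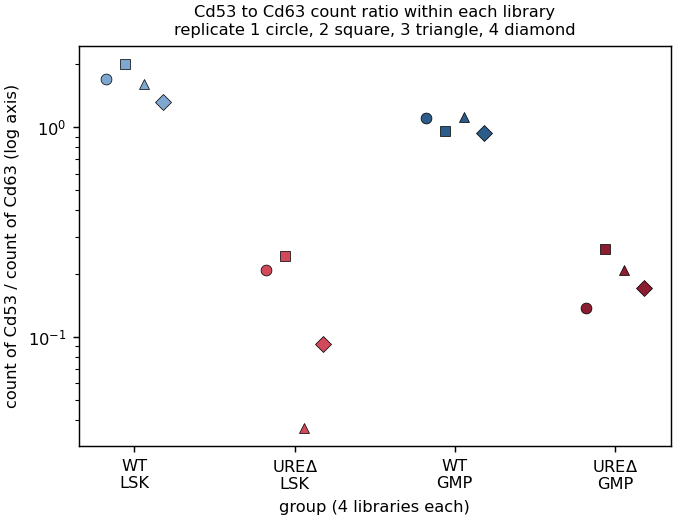
Count of Cd53 divided by count of Cd63 in each library (log axis), by group, with symbols for replicates 1 to 4. WT libraries lie between 0.931 and 1.999 and UREΔ libraries between 0.0367 and 0.262.

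Whether the effect of the deletion differed between cell types was tested with an interaction term over all 16 libraries, in which 23 members were tested and 1.22% of all genes were called (0.866% with a more positive effect in GMPs and 0.351% with a more negative one). Tspan2 was the only member called. It had 51.0, 43.9, 30.0 and 34.7 CPM in WT GMPs and 57.0, 90.8, 23.1 and 78.6 CPM in UREΔ GMPs, where replicate 3 lay below and the other 3 above the WT range. The genotype effect was −1.78 in LSKs and 0.62 ± 0.37 SE in GMPs on the log2 scale, a difference of 2.40 ± 0.49 SE (edgeR adjusted p = 0.0273). The call was lost in 9 of the 16 fits that left out a library, with the log2 difference between 2.15 and 2.43 and edgeR adjusted p values of 0.0505 to 0.0674. These were the fits without UREΔ GMP replicate 2 or 4, UREΔ LSK replicate 1 or 4, WT GMP replicate 2, 3 or 4, or WT LSK replicate 1 or 2. With the replicate block, which called 3.97% of all genes as more positive in GMPs, the leukocyte member Cd37 was called as well. It had 90.5, 118, 101 and 78.6 CPM in WT LSKs and 74.9, 84.7, 86.3 and 49.1 CPM in UREΔ LSKs, but 75.1, 98.0, 89.4 and 64.0 CPM in WT GMPs and 106, 135, 109 and 139 CPM in UREΔ GMPs. Its UREΔ libraries ranged lower in LSKs, with overlap, and higher in GMPs, without overlap (interaction 0.98 ± 0.28 SE, edgeR adjusted p = 0.1197, and 0.0129 with the block). The Cd53 and Cd63 interaction terms were 1.498 ± 0.59 and 0.44 ± 0.20 SE (edgeR adjusted p = 0.291 and 0.399), so a difference between cell types in the size of their genotype effects was not detected.

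GMPs were then set against LSKs of the same genotype. In WT mice 2 members were higher and 5 lower in GMPs among 21 tested, when 27.3% of all genes were called (11.5% higher and 15.8% lower), and with the replicate block 8 were lower (25.1% of all genes). In UREΔ mice 5 were higher and 8 lower among 20 tested, when 21.8% of all genes were called (9.20% higher and 12.6% lower). These comparisons use the same libraries as the genotype comparisons, so their values are given side by side only. Without overlap between cell types were 9 of 21 members in WT (31.2% of all genes) and 13 of 20 in UREΔ (26.5% of all genes). The members' median log2 difference was −0.48 in WT and −0.72 in UREΔ, against −0.09 over all genes in each.

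The members called in both genotypes numbered 7, a count for which the share of all genes is not given. Of these members, 2 rose towards GMPs. Cd63 rose 2.17-fold in WT (log2 fold change 1.11 ± 0.16 SE) and 2.89-fold in UREΔ (1.53 ± 0.15 SE). Tspan31 rose from 94.1 ± 8.93 to 144 ± 13.3 CPM in WT (0.60 ± 0.14 SE) and from 102 ± 18.7 to 192 ± 41.0 CPM in UREΔ (0.87 ± 0.19 SE). Of its exonic bases 641 (29.2%) are shared with Cdk4 on the opposite strand, and these libraries do not keep the strand, so reads of both genes cannot be told apart there.

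The other 5 fell towards GMPs. Tspan6, a member of endosomal and exosomal membranes, fell from 46.3 ± 2.69 to 12.6 ± 1.83 CPM in WT (log2 fold change −1.89 ± 0.18 SE) and from 73.8 ± 14.3 to 14.6 ± 4.42 CPM in UREΔ (−2.37 ± 0.26 SE). Tspan13 fell from 642 ± 68.3 to 227 ± 60.3 CPM in WT (−1.51 ± 0.20 SE) and from 1206 ± 240 to 264 ± 89.1 CPM in UREΔ (−2.23 ± 0.27 SE). Cd82, which is known to mark long-term stem cells, fell 2.74-fold in WT (−1.46 ± 0.27 SE) and 3.72-fold in UREΔ (−1.89 ± 0.23 SE). Tspan3, studied in acute myeloid leukaemia, fell 2.23-fold (−1.16 ± 0.25 SE) and 2.47-fold (−1.30 ± 0.27 SE), and the migrasome protein Tspan4 1.61-fold (−0.68 ± 0.16 SE) and 1.62-fold (−0.70 ± 0.16 SE). For Cd63 and these members other than Tspan4 the calls held without each library in turn. Those of Tspan4 and, in WT, Tspan31 were lost for some libraries. The fold of Tspan31 passed below 1.5 without WT LSK replicate 1 or 4 (log2 0.57 and 0.58), and that of Tspan4 without WT GMP replicate 1 (−0.55) or UREΔ LSK replicate 3 (−0.58), while without UREΔ GMP replicate 4 the edgeR adjusted p of Tspan4 was 0.0515.

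Another 6 members were called only in the UREΔ comparison, again without a share of all genes. Among them the interaction term without the block called a difference between genotypes for Tspan2 alone, and with the block also for Cd37. Tspan2 rose 6.38-fold from UREΔ LSKs to UREΔ GMPs (log2 fold change 2.67 ± 0.38 SE, edgeR adjusted p = 0.00129), where the WT difference was 0.31 ± 0.29 SE. Cd53 rose 3.73-fold (1.90 ± 0.52 SE, edgeR adjusted p = 0.0283), and the WT difference was 0.42 ± 0.16 SE. Cd37 rose 1.61-fold (0.69 ± 0.20 SE, edgeR adjusted p = 0.0379), and the WT difference was −0.26 ± 0.19 SE. This Cd37 call was lost with the Y-linked covariate (edgeR adjusted p = 0.0541). Tspan12 fell 7.75-fold (−2.95 ± 0.38 SE), the TspanC8 member Tspan14 2.37-fold (−1.24 ± 0.29 SE) and Cd81 1.68-fold (−0.75 ± 0.20 SE). In WT the log2 differences of these 3 were −1.997 ± 0.91, −1.09 ± 0.40 and −0.54 ± 0.19 SE. Tspan12 had 2, 2, 0 and 17 counts in WT GMP replicates 1 to 4. Its WT difference ranged from −4.01 to −1.58 when 1 library was left out. Of 8 such WT fits, 1 called Tspan12, 2 called Tspan14 and 1 called Cd81. The Cd53 call was lost without UREΔ GMP replicate 2 or 4 or UREΔ LSK replicate 4 (edgeR adjusted p = 0.0569 to 0.0720). Those of Cd37 and Cd81 were each lost in 5 of 8 such fits (edgeR adjusted p up to 0.101 and 0.0859): for Cd37 without UREΔ GMP replicate 1, 2 or 4 or UREΔ LSK replicate 1 or 4, and for Cd81 without UREΔ GMP replicate 1 or 4 or UREΔ LSK replicate 2, 3 or 4. With the replicate block, Cd151, Tspan14 and Tspan9 were also called lower in WT GMPs (edgeR adjusted p = 0.00639, 0.000189 and 0.0327), and in UREΔ GMPs Cd9 was called higher and Cd151 and Tspan17 lower (edgeR adjusted p = 0.0259, 0.00669 and 0.0249).

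**Figure D5:**
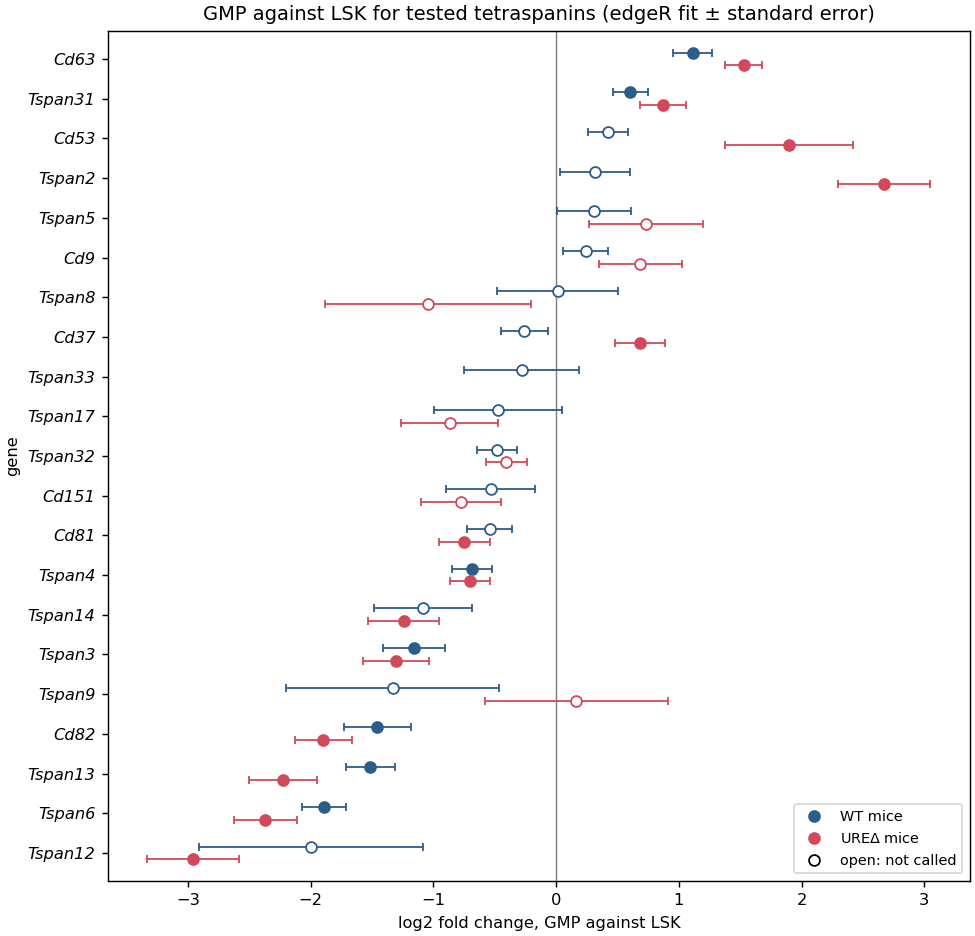
Log2 fold change (GMP against LSK, ± standard error) of each tested tetraspanin in WT and UREΔ mice, with filled points for called genes and open points for the rest. Cd63 and Tspan31 are above 0 and called in both genotypes, and Tspan3, Tspan4, Tspan6, Tspan13 and Cd82 are below 0 and called in both.

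In the 5 comparisons, 7 members were tested by edgeR without the block but not called, namely Cd151, Tspan5, Tspan7, Tspan8, Tspan9, Tspan17 and Tspan18, of which the block called Cd151, Tspan5, Tspan9 and Tspan17 as given above. Some low members that edgeR's filter left out were called by DESeq2 between cell types. Tspan7, an X-linked member best known from the brain, had 41, 30, 9 and 56 counts in WT LSKs and 0, 1, 0 and 5 in WT GMPs. The groups did not overlap (log2 fold change −4.03, DESeq2 adjusted p = 0.000316), and edgeR called it in 6 of the 8 fits that left out a library. The log2 fold changes of such edgeR fits ranged from −5.98 to −3.57. From UREΔ LSKs to UREΔ GMPs DESeq2 also called Tspan15 lower (8, 1, 27 and 3 counts, then 0, 0, 1 and 0; DESeq2 adjusted p = 0.0239) and Tspan33 higher (5, 0, 0 and 1 counts, then 15, 2, 18 and 5; DESeq2 adjusted p = 0.0480), both with overlap between the groups. The members include 4 pairs of neighbours on a chromosome. Tspan32 and Cd81 lie 33095 bases apart on chromosome 7, and in GMPs Tspan32 rose with the deletion while Cd81 had a log2 difference of −0.23 ± 0.20 SE. Cd151 and Tspan4 lie 3767 bases apart on the same chromosome, and Tspan4 fell towards GMPs in both genotypes while Cd151, which binds laminin-binding integrins, was called with the replicate block only (log2 fold changes of −0.53 ± 0.36 and −0.77 ± 0.33 SE). Cd82 and Tspan18 are 84606 bases apart on chromosome 2, and Tspan18 held at most 16 counts in a library. Tspan11 and Tspan9 are 7419 bases apart on chromosome 6, and Tspan11 held none. Besides Tspan31, exons of Tspan4 and Chid1 share 292 bases (13.4% of Tspan4) and those of Cd9 and Gm26728 218 bases (10.7% of Cd9), in both cases on opposite strands.

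Proteins known to associate with tetraspanins were followed beside the members. Of 22 partner genes, 19 were tested in LSKs and 1 was called between genotypes, against 6.14% of all genes, which is Itga2b, the integrin chain of platelets and megakaryocytes, which rose in UREΔ LSKs (36.6 ± 9.30 to 137 ± 75.0 CPM, log2 fold change 1.88 ± 0.41 SE, edgeR adjusted p = 0.0260). In GMPs 18 were tested and 1 was called, against 8.30% of all genes, which is Clec7a, the Dectin-1 receptor for fungal glucans that associates with Cd37 and Cd63, which fell from 25.7 ± 4.24 to 5.85 ± 2.34 CPM (−2.15 ± 0.30 SE, edgeR adjusted p = 0.00261). Adam10, the partner of the TspanC8 members, had 446 ± 101 CPM in WT and 602 ± 85.2 CPM in UREΔ LSKs and 435 ± 126 and 401 ± 85.4 CPM in the GMPs, with no call between genotypes. Towards GMPs 2 partners rose and 3 fell among 18 tested in UREΔ mice, against 21.8% of all genes called. Adam10 fell (log2 fold change −0.63 ± 0.19 SE, edgeR adjusted p = 0.0438), as did Itga6 (−1.13 ± 0.33 SE) and Itgb1 (−0.61 ± 0.17 SE), the chains of a laminin-binding integrin, while Itgb2, the β chain of leukocyte integrins, and Clec7a rose (1.15 ± 0.30 and 3.17 ± 0.55 SE). In WT mice 4 of 19 were called, against 27.3% of all genes. Clec7a and Itga2b rose and Itga3 and Ifitm1 fell. With the replicate block the counts were 3 higher in UREΔ LSKs (Itga6 and Igsf8 added, 9.46% of all genes called) and 3 higher and 1 lower in UREΔ GMPs (Itgb2, Ifitm1 and Zdhhc2 added, 16.3% of all genes called). Towards GMPs they were 3 higher and 5 lower in WT and 2 higher and 8 lower in UREΔ, against 40.9% and 31.9% of all genes called. By the interaction the block called 2 partners as more positive in GMPs (Itgb2 and Ifitm1) and 2 as more negative (Itga6 and Igsf8), against 6.57% of all genes, and none was called without it.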

How the data were processed

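RNA was extracted from LSKs and GMPs sorted from the bone marrow of UREΔ and WT littermates, and low-input, unstranded poly(A) libraries were sequenced in paired-end mode. According to the labels and the study's methods, the authors quantified reads with salmon on GRCm38 and summed transcript estimates to genes with tximport. The salmon version and the annotation release are not given in the sources used here. The deposited values are estimated counts per gene and library, which the authors rounded to whole numbers and did not normalize.

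From these counts, edgeR 4.0.16 (R 4.3.3) was run on all genes with TMM scaling, filterByExpr and the quasi-likelihood test in the 2 groups compared, or in all 4 groups for the interaction. Genes with a Benjamini-Hochberg adjusted p under 0.05 over all genes tested and a fold change above 1.5 were called, and the interaction had no fold limit. Fold changes come from these fits. CPM values use TMM factors over all 16 libraries, and exon lengths and positions come from GENCODE M21 (GRCm38), which held 27 of 27 members. The edgeR fits without a block for the genotype comparison in LSKs and for the interaction were first tested on simulated counts with planted changes. These counts had the same dispersion for all genes and no replicate structure. The other fits were not tested in this way.

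Same-numbered libraries deviated together (r = 0.30 to 0.61 between genotypes in LSKs, 0.28 to 0.63 in GMPs, 0.47 to 0.76 between cell types in WT and 0.44 to 0.58 in UREΔ). Differently numbered libraries ranged from −0.55 to 0.43 between genotypes in LSKs and from −0.55 to 0.48 in GMPs and were positive for 1 with 4 and for 2 with 3, so between genotypes these correlations do not tell pairing by number from a split of 1 and 4 against 2 and 3. Between cell types, differently numbered libraries reached at most 0.33 in WT and 0.40 in UREΔ, below every same-numbered pair. The numbers come from the sample titles and were taken as pairing the libraries, and a fit with the replicate block was an alternative, as were DESeq2 1.42.0 (the study's tool), its size factors, no filter, a Y-linked covariate, fits within replicates 1 and 4 or 2 and 3, a term for that split, which was known from an earlier analysis of these data and is not in the labels, and leaving out each library. No pair of replicates agreed within sampling noise (chi-square per degree of freedom at least 29.6). The study gives 4 mice per genotype and cell type, but the labels do not name the animals, so p-values measure the spread between these libraries.

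The members, gene lists and tests were chosen with earlier results of these data known. Values in every library are given for members called between genotypes or by the interaction, with or without the block, and the other members are given by means, counts and ranges.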

Additional observations from a re-analysis of the deposited data

Results flagged for a closer look

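Within groups of 4 libraries, 7 of 92 checked sets of values had 1 library far from the other 3 by Dixon's test of the gap over the range, and chance alone gives about 1 in 20, or 4.6 here. Several rest on few counts. Tspan12 was at 0.882 CPM in WT GMP replicate 4 (17 counts, against 0 to 2 in the others), Tspan7 at 0.259 CPM in the same library (5 counts, against 0 to 1), and Tspan13 at 317 CPM there, against 189 to 206 CPM. In UREΔ LSK replicate 2 Tspan18 was at 0.530 CPM (16 counts, against 1 in each of the others), Tspan7 at 0.696 CPM (21 counts, against 0 to 3), and Tspan6 at 95.03 CPM, against 64.9 to 69.8 CPM. Tspan32 was at 439 CPM in WT LSK replicate 3, against 311 to 332 CPM.

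The effect of the URE deletion on Tspan2 differed between GMPs and LSKs by 2.40 on the log2 scale (edgeR's interaction term, Benjamini-Hochberg adjusted p = 0.0273).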

How the results depend on the processing

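Of the 44 single-gene values followed, none reversed under any alternative. The replicate block raised the members called to 6 higher in UREΔ LSKs, 5 higher in UREΔ GMPs, 8 lower in WT GMPs against LSKs and 2 by the interaction, and a term for replicates 1 and 4 against 2 and 3 gave 6, 5 and 2 for the LSK, GMP and interaction counts. The block removed none of the calls, and beyond the added calls given in the results it changed no other call of a member. DESeq2 called 6 members higher in UREΔ LSKs. With the Y-linked covariate 1 member was higher and 1 lower in UREΔ LSKs. Shares of all genes are not given for the fits with this covariate, with the term for replicates 1 and 4, within replicate pairs or without a library. Changes in their counts of members cannot be told from changes over all genes. Within replicates 1 and 4 the count higher in UREΔ LSKs was 1. Within replicates 2 and 3, with 2 libraries per group, it was 0 higher and 0 lower in LSKs, 0 higher and 0 lower in GMPs, 1 higher in WT GMPs against LSKs, 2 higher and 3 lower in UREΔ GMPs against LSKs, and 0 by the interaction. DESeq2's size factors in edgeR moved none of the 44 values across the threshold, and leaving out the filter on low counts moved 1.

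Leaving out 1 library at a time gave 1 to 4 members higher and 1 to 3 lower in UREΔ LSKs, 2 to 4 higher in UREΔ GMPs, 1 to 2 higher and 5 to 8 lower in WT GMPs against LSKs, 3 to 6 higher and 6 to 8 lower in UREΔ GMPs against LSKs, and 0 to 1 by the interaction. Where a fit left out a library, the smaller group had 3. The cause of these differences was not tested. At 20028302 to 29128858 counts per library, 3 counts correspond to 0.0961 to 0.169 CPM. Where a group lay near that level, as for Tspan33, Tspan7 and Tspan15, the fold change rests on few counts and its size is uncertain.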
